A study of Mus musculus with 9 samples.

Results

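Potassium channels let potassium leave the cell, or in some families enter it, and so set a neuron's resting potential, the width of its action potential and how fast it can fire. The genes described here are all 93 lines of the count table whose symbol starts with Kcn and has the form of a channel gene, out of 55335 lines. Of these 93 genes, 82 had enough counts to be tested. RNA came from the prelimbic area of the medial prefrontal cortex, which takes part in pain and mood, taken 14 days after surgery from 9 mice. The 3 groups of 3 were nerve-injured mice treated with 10 mg/kg of R-HNK (called R-HNK mice), nerve-injured mice that received saline (SNI saline mice) and sham-operated mice that received saline (sham mice). R-HNK is the (2R,6R) form of hydroxynorketamine, which the body makes from ketamine, and the injury was spared nerve injury (SNI), in which part of the sciatic nerve is cut as a model of neuropathic pain. The strain, sex and age of the mice and the timing of the R-HNK dose are not given in the sources used here.

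As background, the genes fall into families by the build of the protein. Voltage-gated (Kv) channels are made of pore-forming subunits of the Kcna, Kcnb, Kcnc, Kcnd, Kcnq and Kcnh genes, of silent modifier subunits (Kcnf, Kcng, Kcns, Kcnv) that form no channel alone but alter Kv partners, and of auxiliary subunits (Kcnab, Kcnip, Kcne). The large-conductance BK channel (pore gene Kcnma1, auxiliary genes Kcnmb), the small-conductance SK channels (Kcnn) and the sodium-activated channels (Kcnt) open as calcium or sodium builds up inside the cell. Inward rectifiers (Kcnj) and tandem-pore-domain (K2P) channels (Kcnk) hold the membrane near rest.

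The libraries held 53624337 to 73586375 counts, and the Kcn genes took 0.606% to 0.673% of them. The tissue label was checked against marker genes. Slc17a7, the vesicular glutamate transporter of cortical excitatory neurons, measured 1780 to 1881 CPM (counts scaled by the size of each library) in R-HNK, 1992 to 2089 CPM in SNI saline and 1477 to 1936 CPM in sham mice. Markers of striatal medium spiny neurons, which lie outside the cortex, were uneven: the dopamine receptor gene Drd2 measured 17.5, 1.27 and 24.6 CPM in R-HNK, 1.496, 1.72 and 1.55 CPM in SNI saline and 1.23, 44.0 and 41.8 CPM in sham mice. The summed level of 15 striatal markers, none of them at 0 in every library, ran from 496.2 to 1308 CPM in R-HNK, 450.4 to 496.8 CPM in SNI saline and 507.7 to 2000 CPM in sham mice. R-HNK replicates 1 and 3 and sham replicates 2 and 3 were thus the 4 libraries raised in striatal markers, and none of them was an SNI saline library. For several of the members named below, values are also given from a fit with a striatal marker score as a term (the striatal-adjusted fit) and from a fit of the other 5 libraries, where R-HNK and sham each have 1 library, assumed to vary like the SNI saline ones.

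The first question was which channel genes the prelimbic cortex expressed. Levels are compared between genes only as CPM per kb of exon, over all 9 libraries. Of the 93 genes 35 measured at least 10 CPM per kb, 33 measured 1 to under 10 and 25 measured under 1. Highest was Kcnab2, the Kv beta subunit that binds Kcna channels, at 85.2 CPM per kb (74.2 to 93.2 across libraries). Kcnj4, an inward rectifier of forebrain neurons, followed at 73.4 (65.8 to 83.4), and the libraries' ranges of the pair overlapped. Kcnf1, a silent subunit, came next at 47.8 CPM per kb (42.6 to 57.3), Kcnip3, a calcium-binding partner of Kcnd channels, at 43.7 (39.6 to 48.8), Kcnj9, a G protein-gated rectifier subunit, at 40.5 (34.5 to 46.0) and Kcnk1, a K2P channel, at 37.5 (32.0 to 42.0). Every library of Kcnj4 lay above every library of Kcnf1, and the lowest library of Kcnf1 lay above the highest of Kcnk1. The ranges of direct neighbours from Kcnf1 to Kcnk1 overlapped.

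Summed per kb, pore-forming Kv subunits made up 35.1% of the members' level, Kv auxiliary subunits 19.3%, inward rectifiers 19.0%, silent modifiers 9.99%, K2P channels 8.79%, calcium- or sodium-activated pores 5.10% and BK auxiliary subunits 2.74%. Across libraries the share of Kv pores ran from 34.3% to 36.2%, that of inward rectifiers from 18.4% to 20.0% and that of BK auxiliary subunits from 2.30% to 3.13%. The summed level of all members was 1024, 1097 and 1021 CPM per kb in R-HNK, 1117, 1063 and 1091 in SNI saline and 1098, 1049 and 974.9 in sham mice, and the groups overlapped.

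The pore-forming Kv genes covered a wide range. Kcna6 (24.9 CPM per kb) and Kcna2 (23.5) led the Kcna genes, which hold down repetitive firing, ahead of Kcna1 (15.9), Kcna3 (8.21), Kcna4 (4.65) and Kcna5 (2.41). Kcnb2, a delayed rectifier, measured 2.32. Of the fast-closing Kcnc genes, Kcnc4 measured 30.9, Kcnc1 22.7 and Kcnc2 14.7. Kcnd2, the pore of the dendritic A-type current, reached 17.5, Kcnd3 10.2 and Kcnd1 2.73. Kcnq3 and Kcnq5, pores of the M-current that muscarinic receptors shut, measured 14.6 and 14.5. In the Kcnh family Kcnh3 led at 34.0, and Kcnh2, the gene behind the cardiac hERG current, measured 8.47.

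Among the other families the spread was wider. Kcnmb4, the BK beta subunit of neurons, measured 27.9 CPM per kb, while Kcnmb2 and Kcnmb1 measured 0.948 and 0.171. Its pore partner Kcnma1 measured 17.95 CPM per kb (16.6 to 20.0 across libraries). Kcnn2, Kcnn1 and Kcnn3, the SK genes, measured 5.59, 4.35 and 2.99, and Kcnt1, a sodium-activated channel, 16.3. Kcnu1, a pH-sensitive channel known from sperm, measured 0.749. The leading silent subunits after Kcnf1 were Kcnv1 (24.8), Kcng1 (13.1) and Kcns1 (6.95). Kcnj10, the rectifier of astrocytes, measured 28.9 against 4.55 for Kcnj16, its partner. Kcnj11, the pore of the ATP-sensitive channel, measured 12.9, and Kcnj8, its vascular relative, 1.21. Behind Kcnk1 the K2P genes ran from Kcnk9 (14.4), an acid-sensitive leak channel, and the mechanosensitive Kcnk2 (12.9) to Kcnk18 (0.0317).

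Genes near the limit of detection were kept apart. The 11 members that missed the filter on low counts were Kcna7, Kcna10, Kcne1, Kcne2, Kcne3, Kcnj1, Kcnj15, Kcnk7, Kcnk16, Kcnmb3 and Kcnv2. Their highest library held 8 counts for Kcna7 and Kcna10, 6 for Kcnk16, 10 for Kcnmb3, 13 for Kcnv2, 16 for Kcne3 and Kcnk7, and 20 for Kcne2 and Kcnj15, and each had a library at 0. Kcne1 and Kcnj1 had 0 counts in all 9 libraries, which allows up to 0.0408 to 0.0559 CPM per library (3 counts, counting error only). A further 9 tested genes, Kcne4, Kcnh8, Kcnj5, Kcnj13, Kcnk5, Kcnk15, Kcnk18, Kcnmb1 and Kcnn4, averaged under 1 CPM. Kcne2 and Kcnj13 are known from the choroid plexus, and 5 markers of that tissue, none at 0 in every library, summed to 3.51 to 4.97 CPM in R-HNK, 1.79 to 2.97 CPM in SNI saline and 5.86 to 8.68 CPM in sham mice. Ttr, its leading transcript, was at or below 0.417 CPM in every library. Of the exon bases of Kcnj13 49.1% also lie in Gigyf2 on the other strand, a gene with 4023 to 5063 counts, so the 0 to 21 counts of Kcnj13 cannot be assigned to it.

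**Figure D1:**
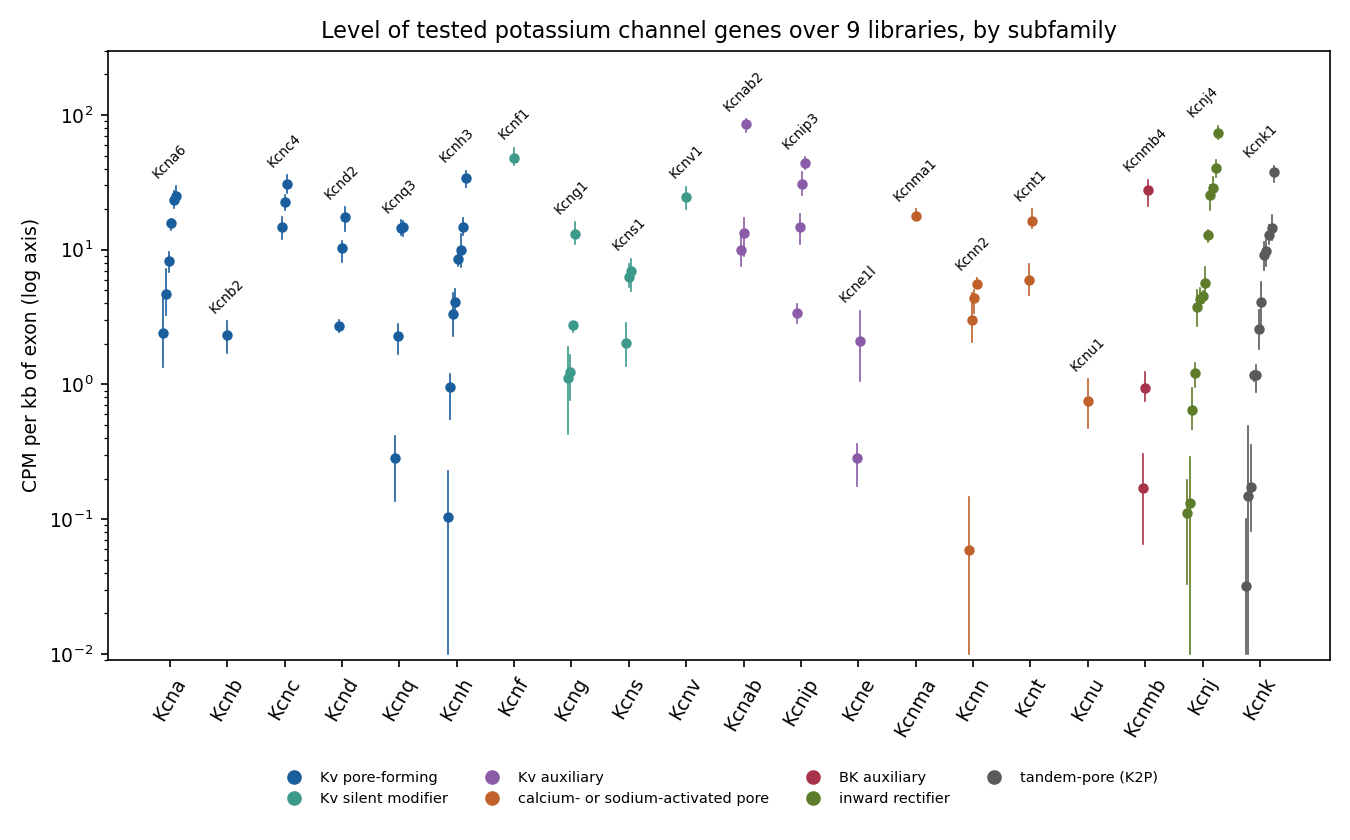
Mean CPM per kb of exon over 9 libraries of 79 tested members (points, log axis) with the lowest and highest library (lines, which stop at the axis where a library was at 0), by subfamily on the horizontal axis, and with the highest member shown in each named. Kcnab2 is highest at 85.2 and Kcnj4 second at 73.4, while the Kcnk genes run from 37.5 for Kcnk1 to 0.0317 for Kcnk18.

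The comparison of SNI saline with sham mice asks what nerve injury did to these genes. A single member had an adjusted p under 0.05 in edgeR, and it was higher in SNI saline mice. Kcnmb4, which makes BK channels slow to open and less sensitive to the toxins that block them, measured 110.2, 107.6 and 99.1 CPM in SNI saline mice, against 84.8, 79.6 and 70.8 CPM in sham mice. Every SNI saline library lay above every sham library. The means were 106 ± 5.80 CPM in SNI saline and 78.4 ± 7.10 CPM in sham mice (SD, n = 3 each), a 1.35-fold difference (log2 fold change 0.43 ± 0.08 SE, edgeR adjusted p = 0.0202). Of the 82 tested members this is 1.22%, against 1.07% of all 21765 tested genes (0.515% higher and 0.556% lower). In this fit the share of members called was thus near the background. DESeq2 called 13 of 82 members, against 1185 of 21765 genes (5.44%), and limma-voom 12 of 82, against 1135 (5.21%). In both of these the share of members was above that of all genes. The 6 immediate early genes, which neurons switch on with activity, summed to 1606 to 1840 CPM in SNI saline and 646 to 810.8 CPM in sham mice, without overlap. Summed markers of meningeal fibroblasts (4 genes, 14.3 to 17.8 CPM in SNI saline and 25.5 to 39.6 CPM in sham mice), choroid plexus (5 genes, values above) and astrocytes (6 genes, 2882 to 3080 CPM in SNI saline and 3126 to 3510 CPM in sham mice) did not overlap either. The same held for striatal medium spiny neurons (15 genes, values above) and inhibitory interneurons (7 genes, 812.5 to 860.3 CPM in SNI saline and 863.6 to 1105 CPM in sham mice). The libraries with most Drd2, sham replicates 2 and 3, also had the highest interneuron sums, 1105 and 1012 CPM, against 863.6 CPM for sham replicate 1. No marker of these lists was at 0 in every library. The part of these genes and cell types in the Kcnmb4 result was not tested. In bulk tissue, more RNA per cell and more cells of the type that makes it cannot be told apart.

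The Kcnmb4 call depends on the libraries in the fit. The adjusted p was 0.0808 without sham replicate 2, 0.0924 without sham replicate 3, 0.0560 without SNI saline replicate 1, 0.1145 without SNI saline replicate 2, 0.175 in the striatal-adjusted fit and 0.419 in the fit of 5 libraries, and the log2 fold change stayed between 0.32 and 0.50 over all 18 other settings. Without sham replicate 1, the sham library low in striatal markers, 16 of 85 tested members passed in place of 1. That share was above the 5.19% of all genes.

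Kcnmb4 lies on chromosome 10 from 116417861 to 116473878 on the minus strand of GRCm38 (mm10). Its exons share bases with a pair of antisense genes, Kcnmb4os2 (20.8% of the exon bases) and Kcnmb4os1 (10.7%), and the sources used here do not say whether reads were counted by strand. Kcnmb4os2 had 352, 376 and 367 counts in R-HNK, 300, 366 and 274 in SNI saline and 330, 191 and 268 in sham mice, against 3890 to 7042 counts of Kcnmb4. The window around the RefSeq start of Kcnmb4 is shown because Kcnmb4 is the member that passed. That of Kcnj2, the member with the smallest p between R-HNK and SNI saline mice, is given for comparison. Both are RefSeq sequences of 300 bases on GRCm38.p6, from 250 bases before to 50 after the start, chr10:116473474-116473773 on the minus strand and chr11:111065914-111066213 on the plus strand, with GC boxes (GGGCGG) and E-boxes (CACGTG) in capitals, searched on both strands.
Kcnmb4: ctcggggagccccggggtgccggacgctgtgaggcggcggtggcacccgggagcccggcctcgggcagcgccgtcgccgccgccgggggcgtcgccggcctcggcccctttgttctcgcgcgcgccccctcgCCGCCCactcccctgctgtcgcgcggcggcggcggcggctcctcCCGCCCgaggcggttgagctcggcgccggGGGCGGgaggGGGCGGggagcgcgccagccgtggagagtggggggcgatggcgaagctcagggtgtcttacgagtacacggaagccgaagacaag
Kcnj2: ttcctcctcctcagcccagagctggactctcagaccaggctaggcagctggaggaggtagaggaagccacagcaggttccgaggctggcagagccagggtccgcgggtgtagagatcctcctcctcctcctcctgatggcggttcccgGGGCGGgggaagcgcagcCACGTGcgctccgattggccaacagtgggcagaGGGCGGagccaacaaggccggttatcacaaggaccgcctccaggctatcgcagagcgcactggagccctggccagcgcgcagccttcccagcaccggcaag
The Kcnmb4 window held 4 GC boxes, 79.0% G and C, and no match to the cyclic AMP element (TGACGTCA), AP-1 (TGANTCA) or EGR (GCGNGGGCG) motif. In GENCODE the gene starts at 116473878 on the minus strand, before this window. The whole window thus lies inside the gene as annotated there, and its motifs do not describe the bases before that start. The Kcnj2 window held 2 GC boxes and 1 E-box, and none of the other motifs. Windows were found for 68 of the 93 members, 93 windows in all, of which 48.4% held a GC box, 7.53% an E-box, 4.30% an AP-1 motif, 4.30% an EGR motif and 0% the cyclic AMP element. Of all 32851 windows the shares were 35.7%, 7.15%, 7.81%, 5.55% and 1.79%.

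Set against its pore gene within each library, Kcnmb4 gave 1.58, 1.44 and 1.73 per Kcnma1 (per kb) in R-HNK, 1.93, 1.75 and 1.49 in SNI saline and 1.38, 1.41 and 1.28 in sham mice. Each SNI saline and each R-HNK library exceeded each sham library in this ratio, which was chosen after the values were seen. An exact two-sided permutation test gave p = 0.1 for SNI saline against sham and for R-HNK against sham, and p = 0.4 for R-HNK against SNI saline. The smallest p that 3 against 3 allows is 0.1, and groups without overlap always give it. These values of 0.1 thus add nothing to the separation already seen. Kcnma1 itself measured 315 ± 23.8 CPM in SNI saline and 295 ± 16.6 CPM in sham mice (log2 fold change 0.09).

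**Figure D2:**
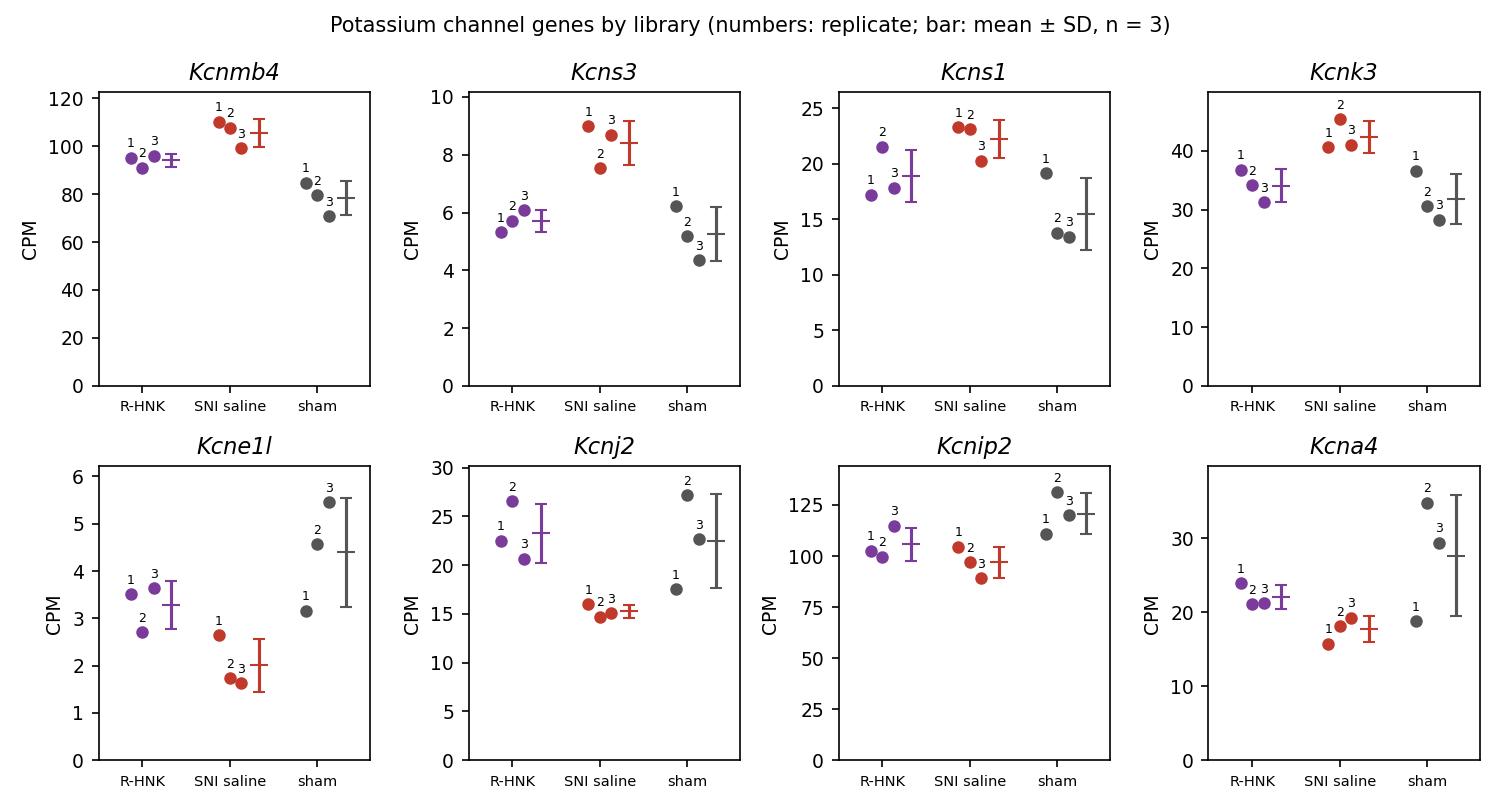
CPM in each library (points, numbered by replicate, axis from 0) of 8 members in R-HNK, SNI saline and sham mice, with mean and SD (n = 3). The 3 SNI saline libraries of Kcnmb4 (99.1 to 110.2 CPM) lie above the R-HNK (91.0 to 95.9 CPM) and sham (70.8 to 84.8 CPM) libraries, while for Kcna4 the sham libraries span 18.8 to 34.8 CPM and overlap the others.

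No other member passed, and 24 of 82 (29.3%) had an unadjusted p under 0.05, against 16.6% of all genes tested. Of these 14 were higher (17.1%, against 7.52% of all genes) and 10 lower (12.2%, against 9.07%). The groups did not overlap for 24 members (29.3%, against 21.7% of all genes), and 44 had a log2 fold change above 0 (53.7%, against 47.6%). The median log2 fold change was 0.03 for the members and -0.02 for all genes. In the striatal-adjusted fit the members' median turned to -0.07 (all genes 0.00), and in the fit of 5 libraries to -0.06 (all genes 0.01). Of the 9 tested Kv auxiliary genes 2 were higher and 3 lower at an unadjusted p under 0.05. The silent modifiers had the highest median of the functional classes, 0.23 over 9 tested genes, with 3 of 9 at that level, all higher. Of these modifiers Kcng4, Kcns1 and Kcnv1 were lowest in the 4 libraries raised in Drd2, and no class median was taken in the striatal-adjusted fit. Kcns3 measured 8.99, 7.53 and 8.69 CPM in SNI saline mice, against 6.22, 5.17 and 4.35 CPM in sham mice (0.68 ± 0.16, adjusted p = 0.0637). Kcns1 measured 23.3, 23.1 and 20.3 CPM in SNI saline mice, against 19.2, 13.8 and 13.4 CPM in sham mice (0.52 ± 0.14, adjusted p = 0.0937). The groups did not overlap for either gene. Kcns1 was among the members lowest in the 4 libraries raised in Drd2, and its log2 fold change was 0.22 in both the striatal-adjusted fit and the fit of 5 libraries, while that of Kcns3 was 0.52 and 0.44. Both encode subunits that join Kcnb channels and alter their opening. Kcnf1 was the third of the class, at 246 ± 24.9 CPM in SNI saline and 208 ± 6.13 CPM in sham mice (0.24 ± 0.08, adjusted p = 0.174).

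Kcnc genes are known from fast-spiking interneurons that contain parvalbumin, and Kcns3 from such cells in human cortex. Kcnc2 measured 112, 118 and 125 CPM in SNI saline mice and 110.1, 94.1 and 86.5 CPM in sham mice (0.29 ± 0.09, adjusted p = 0.14), without overlap, and Kcnc1 and Kcnc4 had log2 fold changes of 0.07 and 0.20. Pvalb, the parvalbumin gene, measured 35.5, 42.4 and 38.3 CPM in SNI saline and 29.4, 22.8 and 16.01 CPM in sham mice, also without overlap. Kcnc1 and Kcnc2 were among the members lowest in the 4 libraries raised in Drd2, which include no SNI saline library. Sham replicate 1, low in striatal markers, had the highest sham value of both Kcnc2 and Pvalb. The 7 interneuron markers summed to 812.5 to 860.3 CPM in SNI saline and 863.6 to 1105 CPM in sham mice, with none at 0 in every library. Sham replicate 1 gave the 863.6 CPM, while replicates 2 and 3, with most Drd2, gave 1105 and 1012 CPM. The R-HNK libraries did not follow this order, since replicate 2, low in striatal markers, had 918.7 CPM, the most of its group. Whether striatal tissue adds to this sum was not tested, so its difference cannot be assigned to interneurons. The part of interneurons in the Kcns3 and Kcnc2 values was not tested either.

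The K2P family held values in both directions. Kcnk3, an acid-sensitive leak channel, measured 40.6, 45.4 and 41.0 CPM in SNI saline mice, against 36.6, 30.6 and 28.2 CPM in sham mice (0.41 ± 0.10, adjusted p = 0.0737). Its exons overlap those of Gm9899 on the other strand by 229 bases, and Gm9899 had 1522 to 1872 counts in SNI saline and 1004 to 1473 in sham mice. Kcnk13, a channel known from microglia, measured 5.81, 6.40 and 5.74 CPM in SNI saline and 7.01, 10.2 and 11.0 CPM in sham mice (-0.66 ± 0.19, adjusted p = 0.112). Neither gene's groups overlapped. In the striatal-adjusted fit and the fit of 5 libraries Kcnk3 had 0.27 and 0.22, and Kcnk13, which was highest in the 4 libraries raised in Drd2, had -0.17 and -0.22. The 6 microglial markers, none at 0 in every library, summed to 263.7 to 292.9 CPM in SNI saline and 272.6 to 336.9 CPM in sham mice, and their part in the Kcnk13 value was not tested. Over the 12 tested K2P genes 6 lay above 0 and 6 below.

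Among inward rectifiers averaging at least 1 CPM, Kcnj2 had the lowest log2 fold change. It encodes a strong rectifier that holds cells near the potassium potential, and it measured 16.02, 14.7 and 15.1 CPM in SNI saline mice, against 17.6, 27.2 and 22.7 CPM in sham mice (-0.56 ± 0.14, adjusted p = 0.0822). The groups did not overlap, but sham replicate 1 lay close to the SNI saline libraries. The log2 fold change of Kcnj2 was -0.45 in the striatal-adjusted fit and -0.20 in the fit of 5 libraries. Kcnj9, a subunit of the channels that G proteins open, had 0.21 ± 0.08 (adjusted p = 0.238), and its partners Kcnj3 and Kcnj6 had unadjusted p above 0.05. Kcnj10 of astrocytes and Kcnj11 of the ATP-sensitive channel measured 152 ± 11.0 and 50.2 CPM in SNI saline and 168 ± 15.8 and 45.3 CPM in sham mice.

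Auxiliary Kv subunits lay in both directions. Kcne1l, an X-linked member of the small KCNE family that can damp Kv currents, measured 2.64, 1.73 and 1.63 CPM in SNI saline mice, against 3.16, 4.56 and 5.46 CPM in sham mice. The groups did not overlap, and the log2 fold change of -1.13 ± 0.26 missed the threshold (adjusted p = 0.0579). It was -0.68 in the striatal-adjusted fit and -0.65 in the fit of 5 libraries. Kcnip2, a calcium sensor that carries Kcnd channels to the surface, measured 105, 96.9 and 89.2 CPM in SNI saline and 111, 131 and 120 CPM in sham mice (-0.32 ± 0.09, adjusted p = 0.0944), and its log2 fold change was -0.19 in both of those fits. Kcnip3 lay the other way, at 161 ± 11.1 CPM in SNI saline and 146 ± 4.99 CPM in sham mice (0.15 ± 0.07, adjusted p = 0.291). Kcnd3, a pore that Kcnip proteins join, measured 87.0 ± 11.4 CPM in SNI saline and 104.5 ± 3.38 CPM in sham mice (-0.27 ± 0.10, adjusted p = 0.197).

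The Kcna genes also differed among themselves. Kcna6 measured 156, 158 and 176 CPM in SNI saline mice, against 144, 131 and 131 CPM in sham mice (0.27 ± 0.08, adjusted p = 0.103). Of its exon bases 39.6% also lie in Gm26673 on the other strand. That gene had 110, 80 and 94 counts in SNI saline and 91, 57 and 25 in sham mice, against 7181 to 11348 of Kcna6 over all libraries. Kcna3, Kcna4 and Kcna5 had log2 fold changes of -0.34 ± 0.11, -0.64 ± 0.18 and -1.08 ± 0.35 (adjusted p = 0.143, 0.12 and 0.172), and Kcna1 and Kcna2 had unadjusted p above 0.05. Kcna4 makes an A-type channel, and its groups overlapped: 15.8, 18.1 and 19.3 CPM in SNI saline and 18.8, 34.8 and 29.4 CPM in sham mice. Its log2 fold change was -0.24 in the striatal-adjusted fit and -0.08 in the fit of 5 libraries. Among SK genes Kcnn1 had 0.35 ± 0.11 (adjusted p = 0.134) and Kcnn3 had -0.70 ± 0.23 (adjusted p = 0.193), while Kcnn2 measured 42.4 ± 3.47 CPM in SNI saline and 40.8 ± 1.79 CPM in sham mice. Kcnq3 and Kcnq5 had -0.03 and 0.00.

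**Figure D3:**
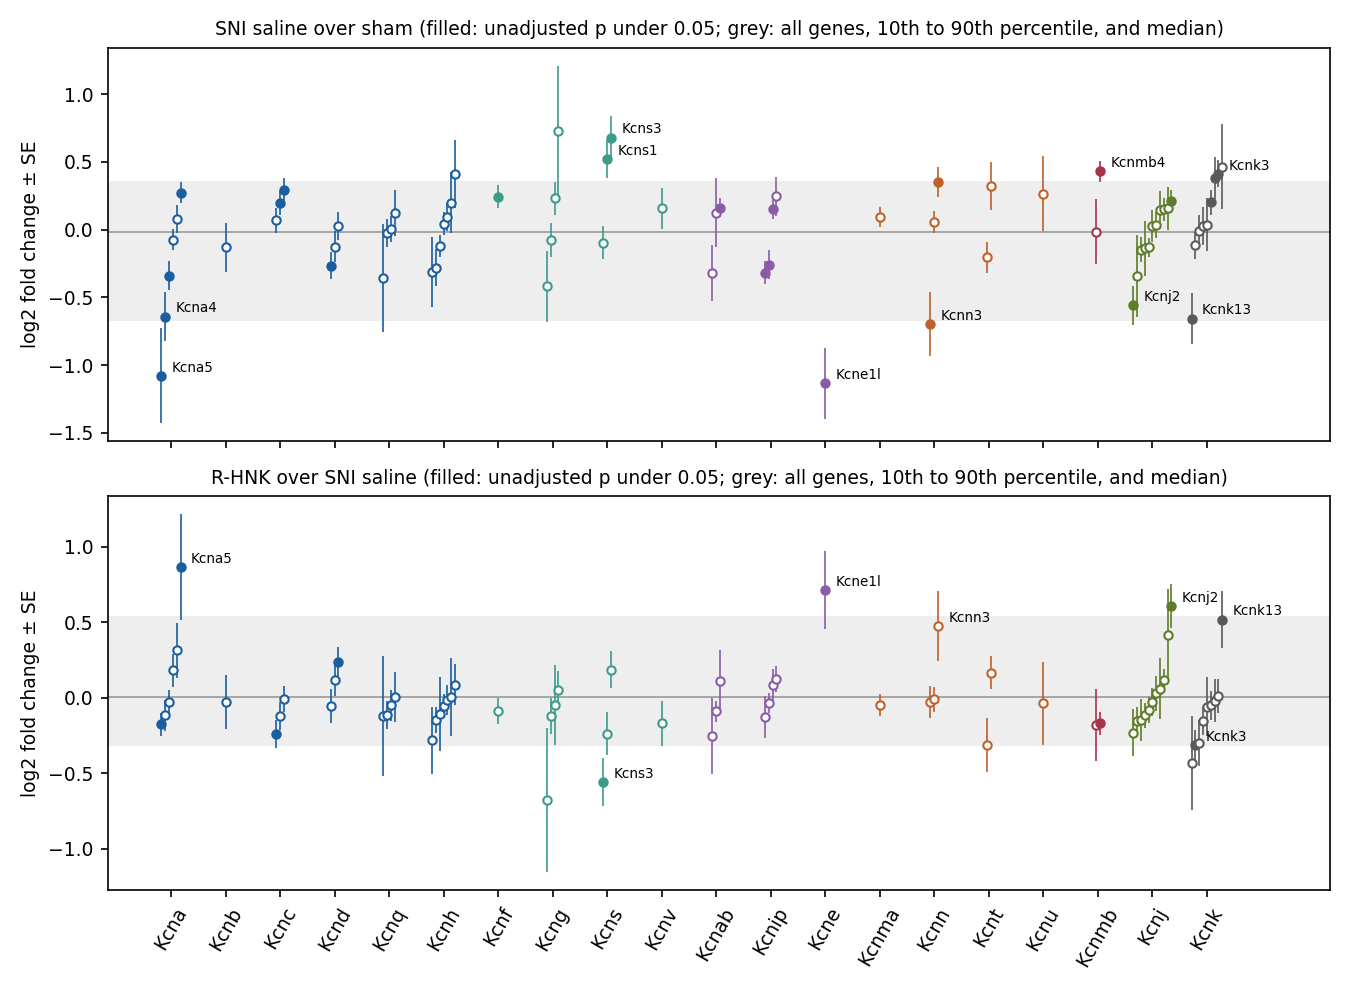
Log2 fold change with SE of 70 members that average at least 1 CPM, by subfamily, for SNI saline over sham mice (top) and R-HNK over SNI saline mice (bottom). Filled points have an unadjusted p under 0.05, and the grey band and line give the 10th to 90th percentile and the median of all tested genes. Kcnmb4 (0.43, top) is the one member with an adjusted p under 0.05, and Kcnj2 (0.61) has the smallest p in the bottom panel.

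The comparison of R-HNK with SNI saline mice asks what the drug did after injury. No member passed in edgeR, against 0.119% of all genes (0.0368% higher, 0.0827% lower), while 10 of 82 members (12.2%) had an unadjusted p under 0.05, against 7.47% of all genes. Of these 5 were higher (6.10%, against 4.20%) and 5 lower (6.10%, against 3.26%). The groups did not overlap for 16 members (19.5%, against 13.7%), 7 higher (8.54%, against 7.15%) and 9 lower (11.0%, against 6.59%). DESeq2 called 1 member, Kcnj2, against 0.643% of all genes, and limma-voom called 0, against 0.225%. Kcnj2 measured 22.5, 26.6 and 20.7 CPM in R-HNK mice, against 16.02, 14.7 and 15.1 CPM in SNI saline mice. All R-HNK libraries lay above all SNI saline ones (0.61 ± 0.14, edgeR adjusted p = 0.249, DESeq2 adjusted p = 0.0215). R-HNK replicate 2, the library of its group low in striatal markers, had the highest value of the R-HNK libraries. The log2 fold change of Kcnj2 was 0.55 in the striatal-adjusted fit (adjusted p = 0.539) and 0.80 in the fit of 5 libraries (adjusted p = 0.0547).

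Other members in this comparison lay in both directions. Kcns3 measured 5.32, 5.71 and 6.07 CPM in R-HNK mice, against 8.99, 7.53 and 8.69 CPM in SNI saline mice (-0.56 ± 0.16, adjusted p = 0.387). Kcnk3 measured 36.8, 34.1 and 31.2 CPM in R-HNK mice, against 40.6, 45.4 and 41.0 CPM in SNI saline mice (-0.31 ± 0.10, adjusted p = 0.518). For both genes the groups did not overlap. Kcnc2 (-0.24), Kcna6 (-0.18) and Kcnmb4 (-0.17) were on the same side, with adjusted p = 0.611, 0.643 and 0.655, and Kcne1l (0.72), Kcnk13 (0.52), Kcnd3 (0.24) and Kcna5 (0.87) on the other, with adjusted p of 0.595 to 0.626. Kcnn3 (0.48, adjusted p = 0.689) and Kcnk12 (-0.30, adjusted p = 0.691) had unadjusted p above 0.05. In the striatal-adjusted fit Kcne1l had 0.42, Kcnk13 0.19, Kcna5 0.21, Kcnn3 0.10, Kcnc2 -0.12 and Kcnk12 -0.08. In the fit of 5 libraries these 6 genes had 0.43, 0.14, 0.24, 0.10, -0.13 and 0.04, and Kcna6 had -0.30. Pvalb measured 20.0, 33.9 and 25.7 CPM in R-HNK and 35.5, 42.4 and 38.3 CPM in SNI saline mice. The 7 interneuron markers, Pvalb among them, did not fall as a sum, at 814.3 to 918.7 CPM in R-HNK and 812.5 to 860.3 CPM in SNI saline mice. The part of interneurons in these values was not tested. Of the 82 members 29 (35.4%) had a log2 fold change above 0, against 51.4% of all genes, and the members' median was -0.05, against 0.01 for all genes. In the striatal-adjusted fit the members' median was 0.01, against -0.01 for all genes. Both this comparison and the one with sham mice use the SNI saline libraries, so their values are not independent.

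R-HNK mice were also set against sham mice. In edgeR no member passed, against 0.00459% of all genes, and 5 of 82 (6.10%, against 3.53% of all genes) had an unadjusted p under 0.05, 3 higher (3.66%, against 1.66%) and 2 lower (2.44%, against 1.87%). A log2 fold change above 0 was found for 36 members (43.9%, against 48.3%). DESeq2 and limma-voom called 0 members as well. Kcnmb4 again had the smallest p, with 95.1, 91.0 and 95.9 CPM in R-HNK mice, against 84.8, 79.6 and 70.8 CPM in sham mice (0.26 ± 0.08, unadjusted p = 0.00455, adjusted p = 1). Its R-HNK libraries thus lay above all sham and below all SNI saline libraries. The log2 fold change was 0.25 in the striatal-adjusted fit and 0.10 in the fit of 5 libraries (unadjusted p = 0.44). Kcnn1, an SK channel that calcium opens through calmodulin, measured 19.1, 22.5 and 22.1 CPM in R-HNK and 17.8, 15.6 and 17.5 CPM in sham mice (0.32 ± 0.11, unadjusted p = 0.0107), also without overlap. Kcnc4 had 0.19, Kcnip2 -0.19 and Kcnh2 -0.17, and the groups overlapped for all 3. Kcns1 (0.29), Kcnf1 (0.16) and Kcne4 (0.58) above 0, and Kcnj10 (-0.17), Kcng3 (-0.46), Kcna4 (-0.33) and Kcnk2 (-0.17) below 0, came next by p, each with an unadjusted p above 0.05. The groups did not overlap for 4 of 82 members (4.88%), against 8.85% of all genes, and all 4 were higher (4.88%, against 4.43% of all genes higher and 4.42% lower): Kcnmb4, Kcnn1, Kcne4 and Kcnip3.

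Across the 3 groups together 0 of 82 members passed the edgeR test for any difference, against 0.381% of all genes, with 17 members (20.7%, against 10.9% of all genes) at an unadjusted p under 0.05. DESeq2 called 8 of 82 members, against 3.12% of all genes, and limma-voom 6 of 82, against 1.93%, both larger shares of members than of genes. The smallest adjusted p was again that of Kcnmb4, 0.0671.

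For some members the libraries raised in striatal markers lay apart from the rest. None of those libraries was from SNI saline mice, so this pattern is partly confounded with a difference between SNI saline mice and the other groups. Only R-HNK replicate 2 and sham replicate 1 separate the pattern from such a difference. The members below were picked by the values of those same libraries. The within-group SD of log2 CPM ran from 0.07 for Kcnip3 to 0.61 for Kcng4, a silent subunit, with a median of 0.18 over 82 members. For 6 members (7.32%, against 5.12% of all tested genes) the 4 libraries raised in Drd2 were the 4 highest of 9: Kcna4, Kcna5, Kcnab1, Kcne1l, Kcnk13 and Kcnn3. Kcna5 measured 8.48, 4.95 and 9.46 CPM in R-HNK, 4.31, 3.85 and 4.38 CPM in SNI saline and 4.43, 9.61 and 12.5 CPM in sham mice. Kcnab1, a Kv beta subunit, measured 91.0, 70.2 and 90.4 CPM in R-HNK, 73.7, 77.4 and 81.7 CPM in SNI saline and 64.8, 115 and 111 CPM in sham mice. Kcnn3 measured 36.4, 25.1 and 36.0 CPM in R-HNK, 25.3, 23.2 and 21.6 CPM in SNI saline and 25.5, 38.4 and 49.6 CPM in sham mice. In all 3 genes R-HNK replicate 2 and sham replicate 1 lay below the other libraries of their groups, which follows from how the genes were picked.

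For 13 members (15.9%, against 4.26% of all tested genes) those 4 libraries were the 4 lowest. Among them were Kcnab2, Kcnc1, Kcnc2, Kcng4, Kcnj3, Kcnj9, Kcnj12, Kcnk4, Kcnk12, Kcns1, Kcnt2 and Kcnv1, of which Kcnj3 and Kcnj9 belong to the G protein-gated rectifiers. Kcnk4, a heat- and stretch-sensitive K2P channel, measured 14.6, 19.1 and 16.2 CPM in R-HNK, 22.3, 24.4 and 20.5 CPM in SNI saline and 25.9, 11.7 and 11.0 CPM in sham mice. In the striatal-adjusted fit 11 of 82 members had an unadjusted p under 0.05 between SNI saline and sham mice, against 8.10% of all genes, in place of 24. Kcnmb4 was in neither of these lists, but its lowest libraries were sham replicates 3 and 2, at 70.8 and 79.6 CPM, the libraries with most Drd2. In the striatal-adjusted fit its log2 fold change was 0.38 (unadjusted p = 0.00191, adjusted p = 0.175).

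**Figure D4:**
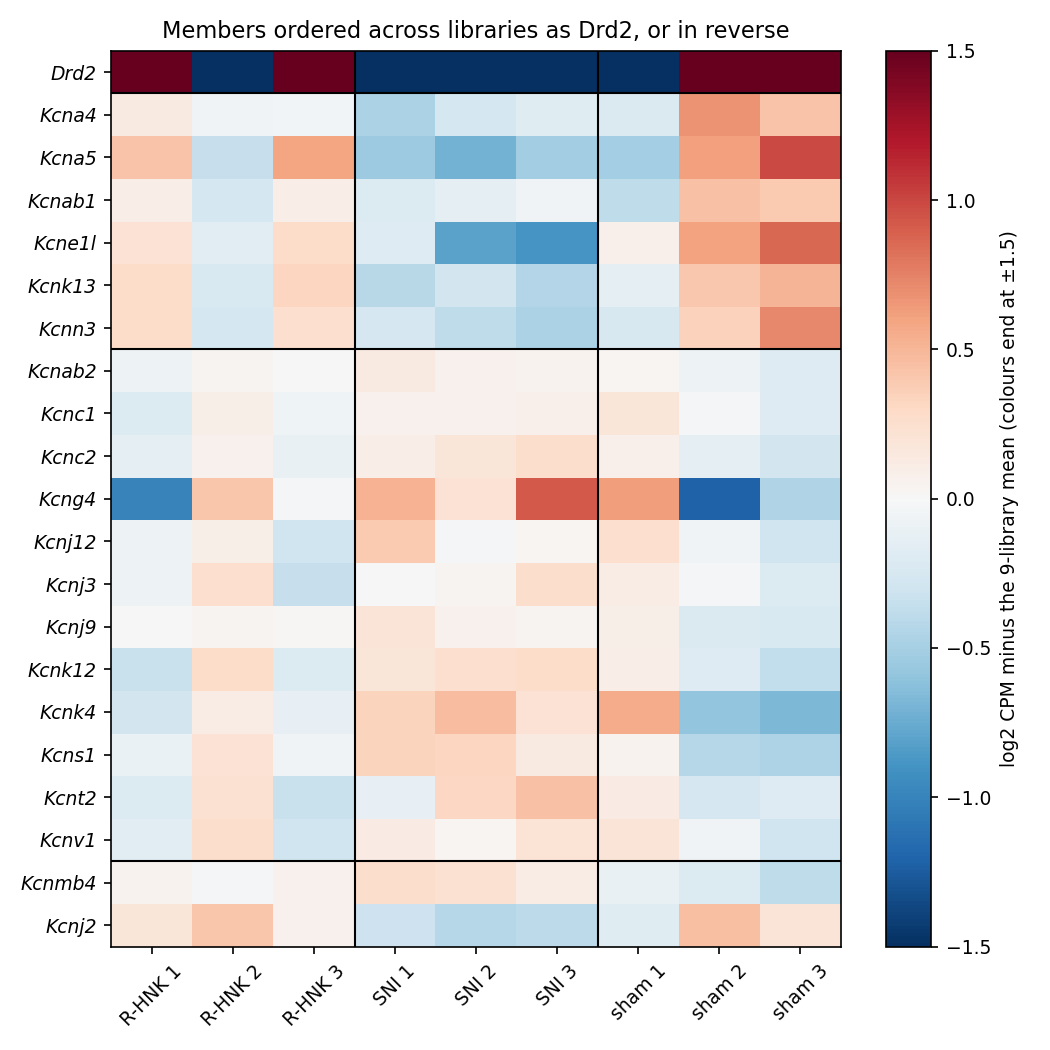
Log2 CPM minus the mean of 9 libraries (colour, ends at ±1.5) of Drd2, of the 6 members highest and 12 members lowest in the 4 libraries with most Drd2, and of Kcnmb4 and Kcnj2, with R-HNK, SNI saline and sham libraries from left to right. The way the 6 highest members were picked places R-HNK replicate 2 and sham replicate 1 below the other libraries of their groups. Kcnmb4 is highest in the 3 SNI saline libraries.

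Genes outside the Kcn symbols that build or steer these channels were read from a list of 27, of which 26 were tested. None passed in any of the 3 comparisons in edgeR. Between SNI saline and sham mice 4 were higher and 1 lower at an unadjusted p under 0.05, that is 5 of 26, against 16.6% of all genes. At that level 1 of 26 differed between R-HNK and SNI saline mice, against 7.47% of all genes, and 1 of 26 between R-HNK and sham mice, against 3.53%. Gng2, a G protein gamma subunit of the kind that opens Kcnj3 and Kcnj9 channels, measured 176.2, 198.7 and 217.5 CPM in SNI saline and 176.4, 157.9 and 161.1 CPM in sham mice (0.26 ± 0.09, adjusted p = 0.171). Calm2, one of the calmodulin genes that gate SK and Kcnq channels, had 0.23 ± 0.08 (adjusted p = 0.185). Lrrc38, a BK gamma subunit, measured 1.46, 2.74 and 2.01 CPM in R-HNK, 3.01, 2.80 and 4.17 CPM in SNI saline and 2.48, 2.18 and 1.46 CPM in sham mice, with 0.71 ± 0.29 for SNI saline over sham (adjusted p = 0.241) and -0.68 ± 0.29 for R-HNK over SNI saline (adjusted p = 0.626). Ank3, which anchors Kcnq channels at the axon initial segment, had -0.18 ± 0.07 between R-HNK and sham mice (unadjusted p = 0.0312, adjusted p = 1).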

How the data were processed

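RNA-seq of prelimbic cortex from 9 mice was read from 1 table of gene symbols. The deposited values are expected counts, that is estimated counts for each gene in whole numbers with no normalization. Per the submitters' processing notes, reads were aligned with HISAT2 2.0.5 to mm10 and counted with featureCounts 1.5.0-p3, while the table's name gives StringTie. Strand and pair handling are not given in the sources.

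In R 4.3.3 with edgeR 4.0.16, filterByExpr left 21765 genes, TMM scaled them, and a robust quasi-likelihood model with 1 mean per group was fitted to all 9 libraries. Adjusted p-values are Benjamini-Hochberg over all genes tested, with a threshold of 0.05. SE was worked back from the F statistic. CPM use TMM-scaled library sizes. With 3 mice against 3, an exact permutation test cannot go below 0.1. Gene positions and union exon lengths come from GENCODE M21 on GRCm38, for all 93 members. Windows around gene starts come from RefSeq, whose starts can differ from those of GENCODE. The edgeR test was also run on simulated counts, in which libraries were not given different amounts of striatal tissue. That run thus says nothing about such differences.

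Named were, per comparison, each called member and the 6 members per direction with the smallest p, the member of each subfamily highest per kb, and the low-count members. The values of some members are not reported here, although all members enter the fits and counts. Others that illustrate a family or a pattern across libraries were chosen after their values were seen. Members, lists and other settings (DESeq2 1.42.0, limma-voom of limma 3.58.1, scaling, filters, replicate block, striatal score, left-out libraries) were chosen with earlier results of these data known.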

Additional observations from a re-analysis of the deposited data

How the results depend on the processing

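Between SNI saline and sham mice 1 member passed. The count was 5 with no filter on low counts, 2 among genes averaging at least 0 on the log2 CPM scale, 13 in DESeq2, 12 in limma-voom with quality weights, 0 in the striatal-adjusted fit and 0 in the fit of 5 libraries, and it ran from 0 to 16 when 1 library was left out. The highest of these was without sham replicate 1, and the 0 counts were without sham replicates 2 or 3 or SNI saline replicates 1 or 2. Between R-HNK and SNI saline mice the count of 0 became 1 (Kcnj2) in DESeq2 and ran from 0 to 1 with 1 library left out, the 1 being without sham replicate 1. For any difference among the groups it became 1 with no filter, 8 in DESeq2, 6 in limma-voom and 0 to 12 with 1 library left out. Kcnmb4 passed in 12 of 18 settings. Of 647 values of named genes over these settings 4 changed sign, all in the fit of 5 libraries: Kcnk12 for R-HNK over SNI saline (0.0351), and Kcnc4 (-0.0332), Kcna4 (0.165) and Kcnk2 (0.0288) for R-HNK over sham. The cause of these shifts was not tested. The background share called between SNI saline and sham mice ran from 0.266% to 5.44% of tested genes over the settings. Replicate numbers were not shown to pair the mice, since same-numbered libraries had correlations of -0.104 to 0.0917 between their deviations from the group means. With the replicate block 1 member passed, Kcnmb4, at 0.43 (adjusted p = 0.0309). Depth limits the 20 members with few counts, 11 below the filter and 9 under 1 CPM.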
